A study of Danio rerio with 6 samples.

Results

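The genes described here were found in the ventricle of only one age group. In the table of raw read counts, a gene was taken when each of the 3 libraries of one group had at most 3 reads and each of the 3 libraries of the other group had at least 20 reads. Of 32520 genes, 14 met these limits. They were 10 genes found in old fish only and 4 genes found in young fish only. The genes were selected on the read counts of these same libraries, so their difference between the groups is described without a test.

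The libraries came from uninjured heart ventricles of wild type zebrafish, the offspring of crosses between AB and TU fish. The old group (replicates 1, 3 and 5) was 4 years of age and the young group (replicates 1, 2 and 5) was 7 months of age. Neither group carried a transgene or a treatment according to the labels and methods. The sex of the fish, their families and whether a library held a single ventricle or a pool are not given in the sources used here. Age therefore cannot be told apart from a difference in sex or family between the groups. Below, old fish and young fish name the libraries compared and not a cause. The spread between libraries may also be in part technical.

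A gene without reads in every library of a group may be missing from the genome of these fish, silent in the tissue, or so different in sequence from the reference that its reads were not kept. Read counts alone cannot tell these apart. The zebrafish genome holds many duplicated genes, some from an ancient duplication of the whole genome (the a and b copies of a gene) and some as neighbouring tandem copies, and laboratory strains differ in which tandem copies they carry. A read that fitted several places had been discarded, so the counts of near-identical copies are uncertain.

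The libraries held between 17742389 and 22547518 counts. In CPM (the count relative to the TMM-scaled library size), 3 counts in a library correspond to a floor of 0.124 to 0.161 CPM, which covers counting error only. All markers of cardiomyocytes that were matched (*MYL7*, *cmlc1* and *actc1a*, 3 of 6 listed) were abundant, with a summed level of 38426 to 47384 CPM in old and 38005 to 55163 CPM in young libraries. Some markers of other cell types lay apart between the groups, and *lcp1* (higher in old) and *hbaa1* (lower in old) passed the threshold of the test described below. The 6 leukocyte markers summed to 44.9 to 117 CPM in old and 21.0 to 35.1 CPM in young libraries, and none of them was at 0. Of these, *cd79a* lay near the floor with 1 to 4 reads per library. *lyz* had 713 reads in old replicate 5 and 3 to 30 in the other libraries. The 3 erythrocyte markers matched (of 5 listed) summed to 349 to 380 CPM in old and 722 to 2105 CPM in young libraries, and the 5 liver markers to 9.42 to 40.1 CPM and 4.61 to 6.49 CPM, with *apoa2* at 0 in every library except young replicate 1 (3 reads). Most of the liver sum was *tfa*, with 227, 147 and 922 reads in old and 78, 129 and 112 in young libraries. In each of the other liver markers the groups overlapped. The atrial marker *myh6* had 6020 reads in young replicate 1 and 120 to 749 in the other libraries. *elnb*, a marker of bulbus smooth muscle, had 40, 25 and 313 reads in old and 9, 0 and 22 in young libraries, without overlap. *ckma*, the skeletal muscle marker matched, was lower in every old library than in every young one. Of the 5 epidermis markers matched (6 listed), *krt5* and *cldni* were higher in old libraries without overlap. *krt5* had 17, 32 and 35 reads in old and 10, 4 and 8 in young libraries. *cldni* had 10, 9 and 12 against 6, 6 and 3. In *krt4*, *epcam* and *cdh1* the groups overlapped, and no epidermis marker passed the threshold. In *nppa* (atrium) and *acta2* (bulbus) the groups overlapped. Whether atrium or bulbus was carried over was not tested. In bulk tissue, more cells of a type and more RNA per cell cannot be told apart, and the part of these cells in the genes below was not tested.

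**Figure D1:**
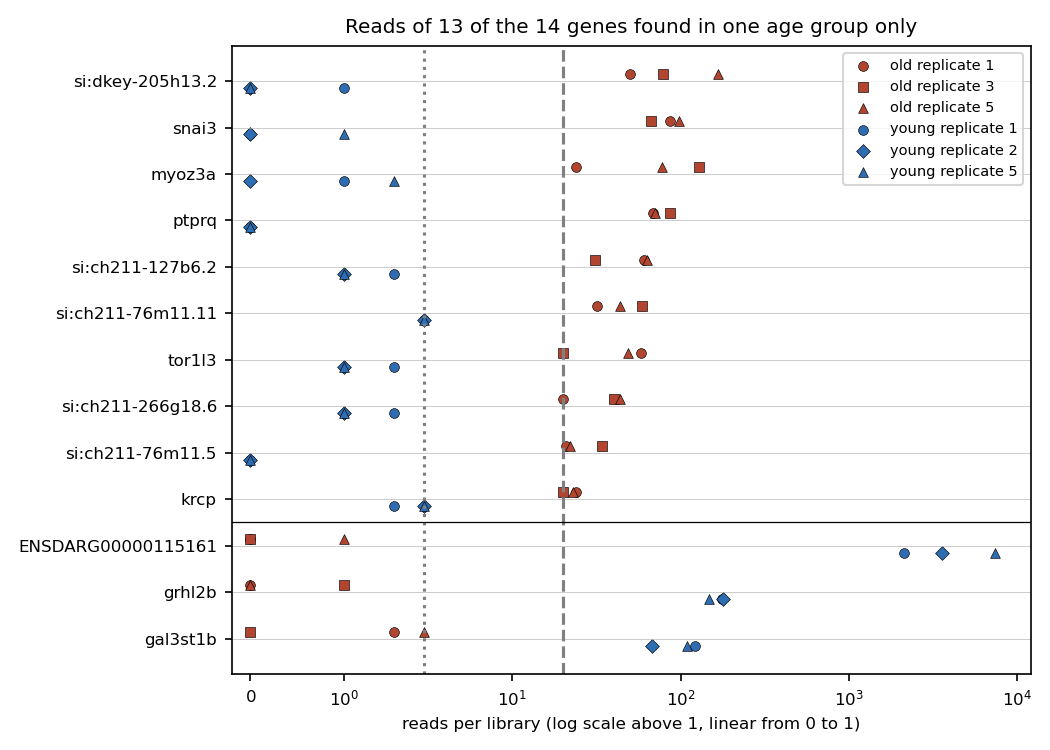
Reads per library (log scale above 1, linear from 0 to 1) of 13 of the 14 genes, with old libraries in red and young libraries in blue. The dotted line marks 3 reads and the dashed line 20 reads, and the 10 upper genes were found in old fish only. ENSDARG00000115161, with 2132 to 7357 reads in young fish, stands far above the other genes.

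Among the genes of old fish, *snai3* was the most even. It encodes a member of the snail family of zinc finger repressors, which are known for silencing epithelial genes. Old replicates 1, 3 and 5 had 87, 67 and 98 reads and young replicates 1, 2 and 5 had 0, 0 and 1. This is a level of 3.86 ± 0.242 CPM (SD, n = 3) in old ventricles, with the highest old library 1.13-fold the lowest. Per sequencing depth, the summed reads of the old group were 234-fold those of the young group, with an exact 95% interval of 41.6 to 9270 that reflects the single read in the young fish. The limits of the rule keep every such interval, here and below, away from 1, so no test is read from them. They cover counting error in the pooled reads and not the spread between libraries.

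*ptprq* encodes a receptor-type phosphatase that mammals need in the hair cells of the inner ear. It had 69, 87 and 71 reads in the old and none in any young library, so it was at least 70.2-fold higher in old fish when the young group is set at a floor of 3 counts over the group. The other gene without any young read was *si:ch211-76m11.5*, with 21, 34 and 22 reads in old fish and at least 23.8-fold more than the same floor. The paper's gene table gives this gene (ENSDARG00000104890) the name *si:dkey-29j8.1*, which the name table used here gives to another gene with 0 to 6 reads per library, so only its identifier is certain.

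*myoz3a* varied most among the old fish. It encodes a myozenin, a protein that sits at the Z-disc of the sarcomere and binds calcineurin. The old libraries had 24, 129 and 78 reads and the young ones 1, 0 and 2, a level of 3.74 ± 2.94 CPM (SD, n = 3) in old ventricles and a 6.35-fold range within that group. *si:dkey-205h13.2*, whose function is not given by its name, had the most reads of the 10 genes. It had 50, 79 and 167 reads in the old and 1, 0 and 0 in the young libraries, which is 4.47 ± 2.33 CPM (SD, n = 3) in old ventricles.

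The other 5 genes of old fish had mean levels between 1.04 and 2.34 CPM in old ventricles. *tor1l3*, a torsin-like gene of the ATPase family that works in the endoplasmic reticulum and nuclear envelope, had 58, 20 and 49 reads in old and 2, 1 and 1 in young fish. The genes known only by clone names were *si:ch211-127b6.2*, *si:ch211-266g18.6* and *si:ch211-76m11.11*. *si:ch211-127b6.2* had 61, 31 and 63 reads in the old libraries, *si:ch211-266g18.6* had 20, 40 and 44, and both had 2, 1 and 1 reads in the young libraries. *si:ch211-76m11.11* had 32, 59 and 44 reads in old fish and 3 in each young library, so its young level lay on the limit of the rule. *krcp*, which encodes a kelch repeat protein, was the gene nearest to both limits. Its reads were 24, 20 and 23 in old and 2, 3 and 3 in young fish, a 7.77-fold ratio of summed reads per depth with an exact 95% interval of 3.72 to 18.7.

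In the other direction, a single gene had far more reads than all the rest. ENSDARG00000115161, which neither the name table nor the paper's table gives a symbol, had 2132, 3583 and 7357 reads in young replicates 1, 2 and 5 and 0, 0 and 1 in old replicates 1, 3 and 5. At 219 ± 140 CPM (SD, n = 3) it ranked 557th of the 24835 genes with any read when ordered by mean CPM in the young ventricle, with no correction for gene length, while the other genes described here ranked between 7136 and 13340 in the group that had them. Its summed reads per depth were 14090-fold those of the old group, with an exact 95% interval of 2529 to 556587.

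*grhl2b* encodes a grainyhead-like transcription factor of epithelial cells. It had 177, 180 and 148 reads in young and 0, 1 and 0 in old fish, and at 8.37 ± 0.710 CPM (SD, n = 3) it was as even among young fish as *snai3* among old ones (the highest library was 1.17-fold the lowest). *gal3st1b* belongs to the sulfotransferases that act on galactose, which in mammals make the sulfatide of myelin. It had 122, 68 and 110 reads in young and 2, 0 and 3 in old fish, a level of 5.00 ± 1.51 CPM (SD, n = 3) in young ventricles.

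**Figure D2:**
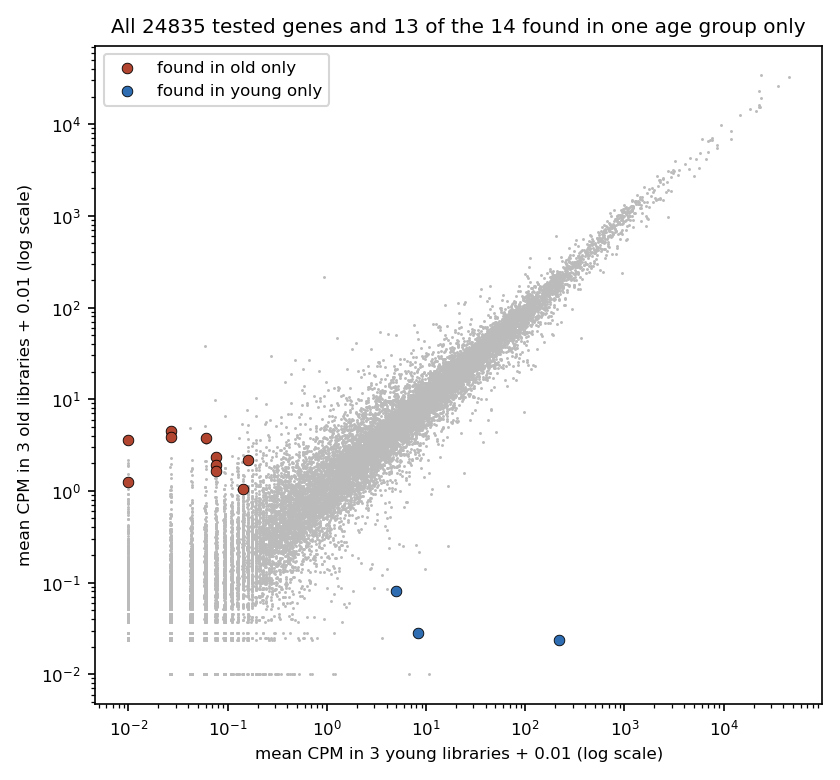
Mean CPM in the 3 young and the 3 old libraries (both with 0.01 added, log scales) of the 24835 genes with any read. The 10 genes found in old fish only (red) have mean levels of 1.04 to 4.47 CPM in old ventricles, and the 3 shown of those found in young fish only (blue) reach from 5.00 to 219 CPM in young ventricles.

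Near the limits, the genes just inside were *krcp*, *tor1l3* and *si:ch211-266g18.6*, each with 20 reads in its lowest old library, and *si:ch211-76m11.11*, with 3 reads in every young library. Just outside for old fish were *si:ch73-168d20.1* with 23, 24 and 19 reads and none in young fish, *si:dkey-239i20.2* with 44, 19 and 45, and *kif1aa* with 23, 18 and 30. *si:rp71-46j2.8* missed the limit at the other end, with 137, 68 and 240 reads in old and 4, 4 and 3 in young fish. For young fish, *si:dkey-28g23.6* had 54, 104 and 83 reads in young and 2, 4 and 2 in old libraries. *fap*, a gene of activated fibroblasts, had 69, 73 and 28 reads in young and 4, 1 and 4 in old libraries. There is thus no gap at the limits between genes inside and outside, although ENSDARG00000115161, *grhl2b* and *snai3* lay well inside them. With 1 library left out, the same limits on the remaining 5 libraries gave 15 to 30 genes of old fish, the highest without old replicate 3, and 4 to 10 genes of young fish, the highest without old replicate 1 or old replicate 5.

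For comparison with the whole table, edgeR's quasi-likelihood test gave an adjusted p-value (Benjamini-Hochberg, over 24835 genes) under 0.05 for 13 of the 14 genes, against 0.858% of all genes tested. They were all 10 genes of old fish, against 0.519% of all genes called higher in old, and 3 of the 4 genes of young fish, against 0.338% called lower in old. These shares follow from how the genes were chosen, and nothing is read from them. Without young replicate 2 the test called 5 of the 14, and without young replicate 1 or young replicate 5 it called 7. DESeq2's Wald test called all 14, against 4.16% of all genes.

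Genes seen in part of a group were more frequent than genes seen in the whole group. With at most 3 reads in every young library, 154 genes reached 20 reads in 1 of the old libraries, 40 in 2 and the 10 described above in all 3. With the groups exchanged, the counts were 32, 8 and 4 genes. In 39 of the 154 genes the other 2 old libraries also had at most 3 reads, and so had the other 2 young libraries in 17 of the 32. The following genes were chosen after their values had been seen. *si:ch73-308b14.1* had 2499 reads in old replicate 1 and at most 2 in any other library. *ly97.3* had 642 reads in young replicate 1 and at most 1 elsewhere. *si:dkey-56m19.6* had 0, 267 and 138 reads in young and none in old fish. A contrast of few against many reads was thus also present between libraries of the same age. Within the old group alone, 401 genes had at most 3 reads in 1 library and at least 20 in another, and within the young group 236 genes did.

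A pair of cytochrome P450 copies was mirrored in part between the groups, although neither met the rule. *cyp4v7* had 134, 113 and 1 reads in young and 1, 1 and 3 in old fish, while *cyp4v8* had 6, 50 and 148 reads in old and 3 in each young library. Neither passed the threshold of edgeR's test (adjusted p = 0.088 and 0.086 with log2 fold changes of -5.63 and 4.29). The mirrored pattern missed young replicate 5 for *cyp4v7* and was weak in old replicate 1 for *cyp4v8*, with 6 reads. *cyp4v7* and *cyp4v8* are named because their values had been seen.

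To see whether close relatives filled the place of a gene, all genes with the same name root or clone name as one of 13 members were taken from the table, a list drawn up with the data in view. Of 58 such relatives with any read, 1 passed the threshold in edgeR (1.72%, against 0.858% of all genes). It was *ca16b*, listed as *PTPRG* in the name table, a receptor-type phosphatase of the same large family as *ptprq*. It had 239, 535 and 344 reads in old and 72, 66 and 44 in young fish, which is 2.57 ± 0.38 (SE) on the log2 scale, with an adjusted p of 0.023 in edgeR. Its adjusted p was 0.092, 0.151 and 0.070 without young replicate 1, 2 or 5. The old and young libraries did not overlap in 24 of the 58 relatives (41.4%, against 4978 of all 24835 genes tested).

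**Figure D3:**
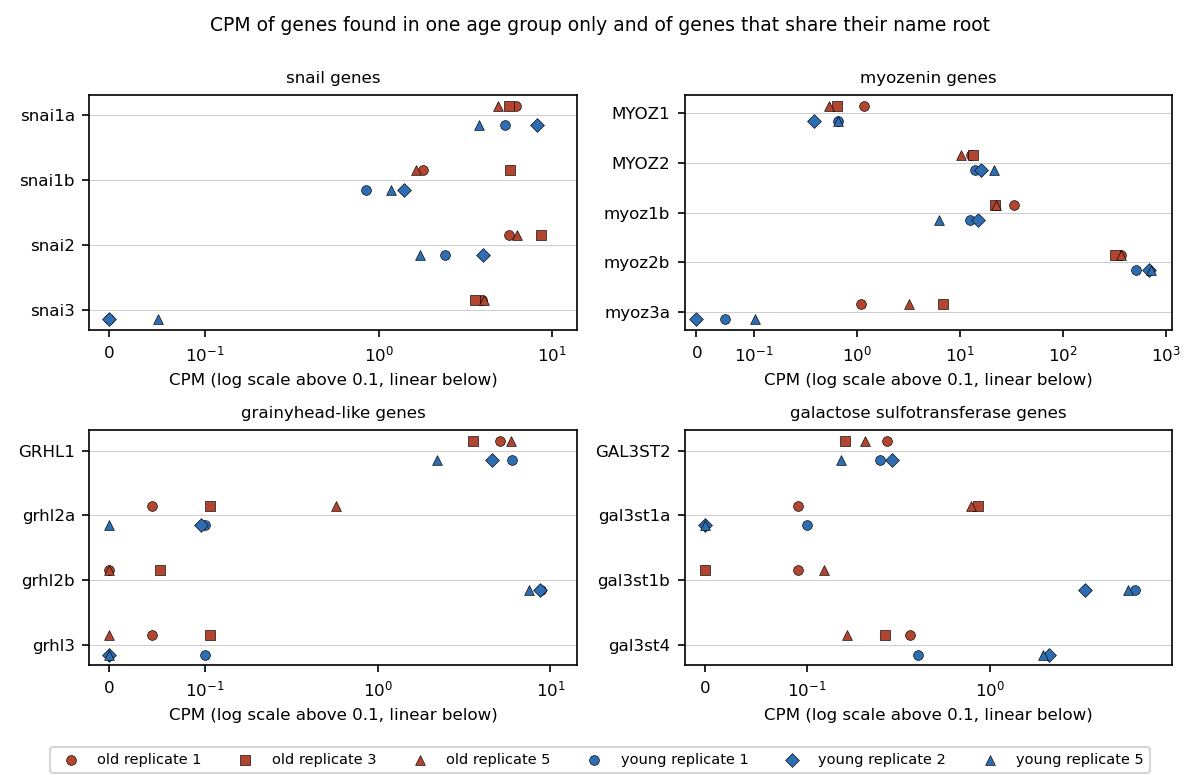
CPM per library (log scale above 0.1, linear below) of the snail, myozenin, grainyhead-like and galactose sulfotransferase genes, with old libraries in red and young libraries in blue. *snai3* lies near 0 in young fish while *snai1a*, *snai1b* and *snai2* were present in both groups, and the mean levels of *gal3st1a* and *gal3st1b* lie in opposite directions, with overlap between the groups for *gal3st1a*.

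The other snail genes were present at both ages. *snai2* had 125, 162 and 153 reads in old and 48, 83 and 34 in young fish, a log2 fold change of 1.34 ± 0.36 (SE) that did not pass the threshold (adjusted p = 0.122 in edgeR). *snai1b* had 40, 107 and 40 reads in old and 17, 29 and 23 in young fish (log2 fold change 1.41, adjusted p = 0.249 from the same test). In *snai1a* the groups overlapped, with 137, 105 and 118 reads in old and 107, 170 and 74 in young fish. Old fish therefore had reads from all 4 snail genes, and young fish from 3, apart from the single read of *snai3*.

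Among the myozenins, *myoz2b* had by far the most reads, with no correction for gene length. It had 7993, 5932 and 8720 reads in old and 10102, 14123 and 13895 in young fish, with a log2 fold change of -0.87 (standard error 0.17) that did not pass the threshold (adjusted p = 0.052 from edgeR's test). *myoz1b* lay the other way, with 735, 412 and 543 reads in old and 251, 311 and 123 in young fish (log2 fold change 1.20, adjusted p = 0.124 from the same test). Neither gene was near 0 in any library, unlike *myoz3a*.

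None of the grainyhead-like relatives of *grhl2b* stood higher in old fish beyond the spread. *grhl2a*, its copy, had 1, 2 and 14 reads in old and 2, 2 and 0 in young fish, and *GRHL1* had 112, 67 and 144 in old and 119, 95 and 43 in young fish, so both overlapped between the groups. The copy of *gal3st1b* had a fitted difference of the opposite sign. *gal3st1a* had 2, 16 and 19 reads in old and 2, 0 and 0 in young fish (log2 fold change 3.89, standard error 1.21), but old replicate 1 equalled young replicate 1 in reads and the difference did not pass the threshold (adjusted p = 0.170 from edgeR's test). *gal3st4* had 8, 5 and 4 reads in old and 8, 43 and 38 in young fish, with an adjusted p of 0.136 from the same test.

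Some of the genes had neighbours with a fitted difference in the same direction. In the order of genes along the GRCz12tu assembly, 10 of the 14 genes and 15809 of the 24835 tested genes could be placed by symbol. Tested genes that could not be placed were skipped, so others may lie between a gene and its nearest placed neighbour. None of the 10 lay within 5 placed genes of another. The genes that could not be placed were *si:ch211-76m11.5*, *si:ch211-76m11.11*, *si:ch211-127b6.2* and ENSDARG00000115161. Whether these lay beside each other or beside another member could not be seen. Of the 40 nearest placed genes, taken as 2 on each side of the 10, 1 passed the threshold of edgeR's test (against 1.18% of the 15809 genes placed in the same way). The old and young libraries did not overlap in 14 of the 40 (35.0%, against 23.7% of all placed genes). In 11 of these 14 the difference had the direction of the member beside them and in 3 the opposite direction. Of all 40, 26 had the fitted direction of that member. The share of each direction among other placed genes was not computed, so nothing is read from these counts.

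The neighbour past the threshold was *otogl*, the nearest placed gene on 1 side of *ptprq*. *otogl* encodes an otogelin-like protein, which mammals need in the extracellular membranes of the inner ear. It had 382, 334 and 56 reads in old and 10, 10 and 13 in young fish, which is 12.5 ± 8.83 CPM (SD, n = 3) against 0.549 ± 0.0996 CPM (SD, n = 3). On the log2 scale this was a change of 4.49 ± 0.72 (SE), with an adjusted p of 0.029 in edgeR. Both neighbouring genes were thus higher in every old library than in every young one. In old replicates 1, 3 and 5, *otogl* had 17.3, 17.9 and 2.31 CPM. *ptprq* had 3.13, 4.66 and 2.93 CPM there. Its levels in old replicates 1 and 5 were close (69 and 71 reads), while *otogl* was far lower in old replicate 5 than in old replicate 1. The adjusted p of *otogl* was 0.124, 0.183 and 0.084 without young replicate 1, 2 or 5, and 0.060 with bias-adjusted deviances.

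**Figure D4:**
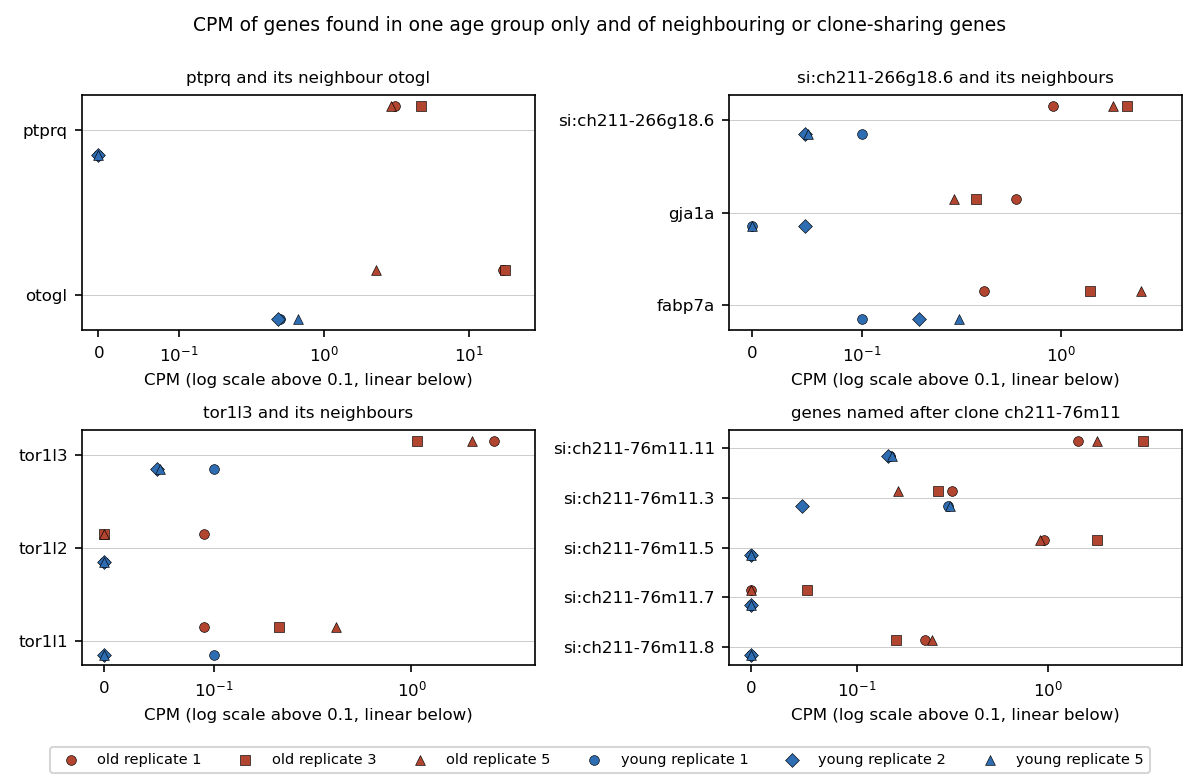
CPM per library (log scale above 0.1, linear below) of *ptprq*, *si:ch211-266g18.6* and *tor1l3* with neighbouring genes, and of the genes named after the clone ch211-76m11 with any read. *otogl* lies above 2.3 CPM in every old library and under 0.67 CPM in every young one, and *gja1a* lies close to 0 in every young library.

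The 2 nearest placed genes on 1 side of *tor1l3* were other torsin-like genes. *tor1l1* had 2, 4 and 10 reads in old and 2, 0 and 0 in young fish, and *tor1l2* had 2, 0 and 0 reads in old and none in young fish, so both were close to the floor in nearly all libraries. Their level was not enough to tell whether they shared the pattern of *tor1l3*. *TOR1B*, the torsin with the most reads, had 318, 277 and 330 in old and 239, 240 and 272 in young fish, with an adjusted p of 0.618 from edgeR's test.

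The clone ch211-76m11 gave its name to 9 genes in the name table, of which 2 were found in old fish only. For 1 of these 2, *si:ch211-76m11.5*, the name is in doubt as described above, and neither could be placed on the assembly. Another, *si:ch211-76m11.8*, had 5, 3 and 6 reads in old and none in young fish, but was too low for the rule and did not pass the threshold (adjusted p = 0.136 from edgeR's test). *si:ch211-76m11.3* had 7, 5 and 4 reads in old and 6, 1 and 6 in young fish, and the remaining 5 genes had at most 1 read in any library. Levels this low were not enough to tell whether the other genes named for this clone shared the pattern. The other clone names were shared by fewer genes, and *si:ch211-127b6.1* had at most 1 read in any library. *si:ch211-266g18.10* had 937, 435 and 1257 reads in old and 1209, 1543 and 2246 in young fish (log2 fold change -1.08, adjusted p = 0.154 from the same test), a fitted sign opposite to that of *si:ch211-266g18.6*.

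All 4 nearest placed genes around *si:ch211-266g18.6* had a higher fitted level in old fish, but in *zgc:85722* and *pln2* the groups overlapped. *pln2* varied widely within both groups, with 1396, 331 and 5958 reads in old and 1317, 49 and 69 in young fish. *gja1a* had 13, 7 and 7 reads in old and 0, 1 and 0 in young fish, and *fabp7a*, a gene of a fatty acid binding protein, had 9, 26 and 61 against 2, 4 and 6. The adjusted p-values of these 2 genes from edgeR's test were 0.10 and 0.12. Beside *myoz3a*, *arl3l2* had 45, 29 and 15 reads in old and 6, 0 and 1 in young fish, and *rgs14a* had 53, 24 and 52 against 15, 10 and 8 (adjusted p = 0.119 and 0.107 from the same test). The nearest placed gene on the other side of *myoz3a*, *acsl1b*, had the opposite sign and overlapping groups. It had 10256, 12213 and 4968 reads in old and 19368, 11516 and 19828 in young fish (log2 fold change -0.94, adjusted p = 0.277 from the same test). Around *grhl2b* and *snai3*, the 4 nearest placed genes of each had fitted log2 fold changes between -0.39 (*CDKN2AIP*) and 0.37 (*RNF166*), except for *cdh31*, which had at most 1 read in any library. In 2 of the 4 around *grhl2b* (*ZNF706* and *PSMG2*) the groups did not overlap, in the direction of *grhl2b*. Around *snai3* this was so for *CDKN2AIP*, in the opposite direction. The next placed genes on 1 side of *grhl2b* were *ftr56*, *seh1l* and *ldlrad4a*. Their log2 fold changes were 2.01, -0.80 and -0.78 (adjusted p = 0.055, 0.095 and 0.087 from edgeR's test).

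**Figure D5:**
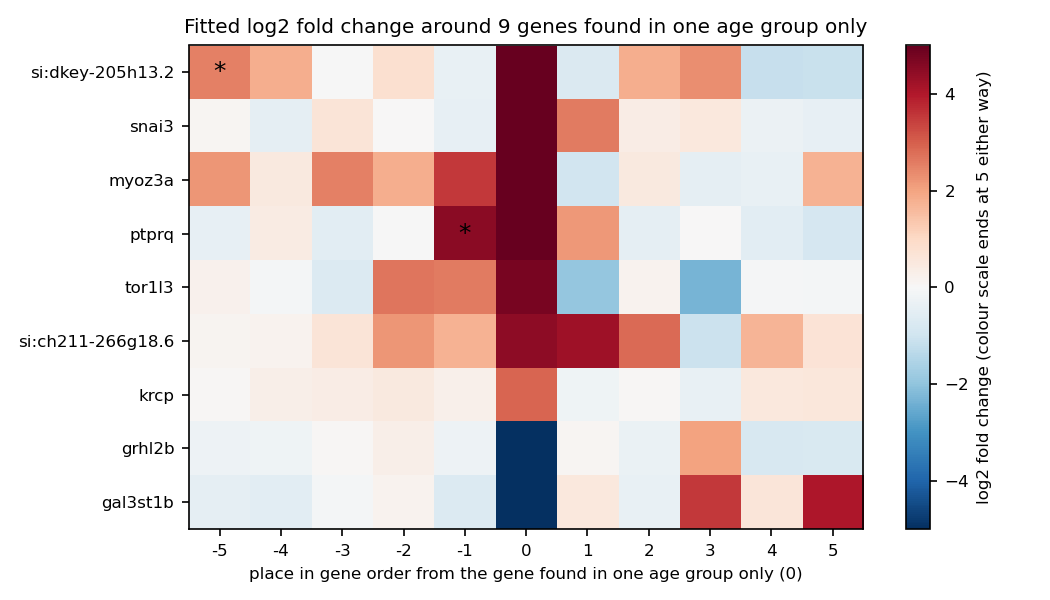
Fitted log2 fold change (old against young, colour scale ending at 5 either way) of 9 of the placed members (place 0) and of the 5 nearest placed genes on each side. An asterisk marks a neighbour with an adjusted p-value under 0.05, which among the 2 nearest on each side was only *otogl*. The colours around *grhl2b* stay pale within 2 places, and those around *si:ch211-266g18.6* are red at all 4 of them.

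None of the 14 genes matched 19 families listed by the start of the symbol, such as the MHC genes, NLR and TRIM genes, chemokines, keratins or histones. These families together held 1127 (4.54%) of the tested genes, a share too small to read anything from a count of 0 among 14. A match by symbol also misses genes with uninformative names, and zinc finger genes such as *snai3* that are named otherwise. A placeholder name was carried by 5 of the 14 (17.6% of all tested genes carried one), and all 5 were genes of old fish. Genes without any symbol made up 1 of the 14 and 7.84% of the tested genes.

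Within the group that had them, the genes of old fish differed in their spread between libraries. The highest library was between 1.13-fold and 6.35-fold the lowest in CPM, with a median of 2.09-fold. For other genes with at least 20 reads in each old library and a mean of at most 10 CPM (5676 genes), the median was 1.56-fold, and 8 of the 10 genes lay above it. These other genes were not matched in level to the 10 genes, whose means were 1.04 to 4.47 CPM. Nothing is therefore read from the difference in spread. Of the genes of young fish, ENSDARG00000115161 had the widest range, 3.52-fold, at a level far above those of the others.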

How the data were processed

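RNA from ventricles of 3 old and 3 young zebrafish samples had been extracted with trizol, chosen by RNA integrity, poly(A)-selected and sequenced from stranded libraries. Alignment by the authors used STAR 2.5.4b against GRCz11 with few mismatches allowed, and featureCounts 1.6.3 assigned reads with a single position to Ensembl genes. The raw counts deposited cover 32520 genes. For this report, counts were scaled by TMM, and 24835 genes (1 read or more in some library) entered the default quasi-likelihood fit of edgeR 4.0.16 in R 4.3.3, with Benjamini-Hochberg adjustment and a threshold of 0.05. The standard error of a log2 fold change was derived from the test, as its absolute value divided by the square root of the F statistic. DESeq2 1.42.0 was an alternative, and scipy 1.17.1 gave the exact (Clopper-Pearson) 95% intervals, which cover counting error only. The test was tested on simulated data. No 2 of the libraries were identical (Pearson's r of 0.904 to 0.966 across 14864 genes).

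All members were named, except 1 gene found in young fish only that is counted but not reported here. Members, lists and neighbours were chosen with earlier results of these data known, and further genes where the text says so. Symbols came from a name table (13 of 14 members, with the paper's table for capital-letter names) and gene order from GRCz12tu (RefSeq). The search for copies by protein sequence was not run, and no sequences were used here.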

Additional observations from a re-analysis of the deposited data

How the results depend on the processing

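The number of genes found in old fish only was 10 and became 2 with no read allowed in young fish, 57 with up to 10 reads allowed there, 34 with at least 10 reads required in old fish, 3 with at least 50, and 15 to 30 with 1 library left out. The number found in young fish only was 4 and became 0 and 19 under the first 2 of these settings and 4 to 10 with 1 library left out. With counts scaled to the mean effective library size, 8 genes were found in old fish only and 4 in young fish only. These 8 need not all be among the 10, so membership near the limits depends on library depth. Among all genes, edgeR's default fit called 213, DESeq2's Wald test 1030, filterByExpr 111, a minimum of 10 summed reads 65, bias-adjusted deviances 111 and fits with 1 library left out 19 to 412. Of the 14 genes, 13 were called, and 5 to 13 with 1 library left out. Of the 40 flanking genes, 1 was called, against 4 by DESeq2, 0 with filterByExpr, a minimum of 10 summed reads or bias-adjusted deviances, 2 of 100 when 5 genes on each side were taken, and 0 to 3 with 1 library left out. Of the 58 relatives, a list chosen after seeing the data, 1 was called, against 7 by DESeq2, 0 with filterByExpr or a minimum of 10 summed reads, and 0 to 2 with 1 library left out. Among all genes, the fit called 412, 282 and 263 without old replicate 1, 3 or 5. Without young replicate 1, 2 or 5 it called 57, 19 and 96. These fits hold fewer libraries and those under a filter fewer genes, and the cause of the changes was not tested. The fitted log2 fold change of *snai1a*, -0.06 and far from the threshold, took the other sign with library size alone (0.11) and in fits without 1 library (-0.29 to 0.28), and no other gene recomputed under these settings did.

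The replicate numbers 1 and 5 occur in both groups, and the deviations of same-numbered libraries had correlations of -0.04 and 0.02, so they were not taken as pairs. With the replicate number as a block, 126 genes, 7 of the 14 members, 0 flanking genes and 0 relatives were called, and *snai1a* had a log2 fold change of 0.29. In that fit old replicate 3 and young replicate 2 each had a block of their own. The age effect there rested on replicates 1 and 5 alone. Closest copies by protein identity, with their alternatives, were not run because no protein sequences were used here. At most 3 reads in a library is an observed level of up to 0.161 CPM. With counting error the true level can be higher, so absence could not be told at this depth.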
